A study of Drosophila melanogaster with 6 samples.

Results

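The genes described here are the Hox genes and the maternal, gap, pair-rule, segment polarity and mesoderm genes that lay out the body plan of the Drosophila embryo, measured in S2 cells that were induced to make the embryonic linker histone dBigH1 and in S2 control cells. Members were named by gene symbol, older synonyms included, and a gene's value comes from the brightest probe set, by mean over the 6 arrays, of those that the array annotation assigns to it alone. Of 36 genes listed, 29 had such a probe set, out of 11982 genes measured in all. The Hox genes lab, Ubx, abd-A and Abd-B, the pair-rule genes run and slp1 and the segment polarity gene wg were not analysed here. The pair-rule gene hairy appears under its current symbol hry and orthodenticle under oc.

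The 3 dBigH1-induced samples came from S2 cells carrying dBigH1::FLAG, a line that was maintained in hygromycin B and moved to the S2 medium for the experiment. The 3 S2 control samples were wild-type S2 cells, per the labels, and both groups received 1 mM copper sulphate for 24 h. The labels name neither the promoter of the transgene nor whether the line is 1 clone, and dBigH1::FLAG cells without induction were not analysed here, so the line and the histone cannot be told apart. S2 is a cell line derived from late embryos whose cells resemble macrophage-like blood cells. Each array measured RNA of 1 sample, and values are log2 signals, on which a difference of 1 is a doubling of the signal.

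In the early embryo, maternal factors such as Bicoid and Caudal set gap genes in broad domains, gap genes set pair-rule genes in stripes, and pair-rule genes set the segment polarity genes that hold each segment's borders. Hox genes then give segments their identity, and they lie in order in the Antennapedia and bithorax complexes. In cells that do not use them, many of these genes are textbook targets of Polycomb repression, and blood cells have no segments to pattern. BigH1 is the linker histone of the early embryo and the germline, present before somatic histone H1 replaces it.

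The log2 signal of BigH1 was 13.47, 13.47 and 13.43 on the induced arrays, against 4.86, 5.42 and 5.30 on the S2 control arrays, so the induced gene stood apart as the labels say. The median signal over all probe sets lay between 6.31 and 6.33 on every array. All 10 plasmatocyte markers measured, among them the GATA factor gene srp and the haemocyte gene Hml, lay above the median of all tested probe sets, with a mean log2 signal of 10.30 to 10.35 on the induced arrays and 10.25 to 10.36 on the S2 control arrays. Behind these means, 5 of the 10 rose and 3 fell in limma (80.0%, beside 42.3% of all genes above that median). Pxn, which encodes an extracellular matrix peroxidase, rose by 0.65 and srp by 0.50. Sr-CI, which encodes a scavenger receptor, fell by 1.09, and He fell by 0.71. Of the markers of other cell types, 0 of 3 for muscle, 3 of 5 for germline, 4 of 6 for ectoderm and 5 of 5 for neurons lay above that median, and the neuronal mean was 8.19 to 8.24 on the induced arrays and 8.23 to 8.31 on the S2 control arrays. Of the germline markers 2 rose and 1 fell (60.0%, beside 30.5% of all genes). The differentiation gene bam rose by 0.62 and, of the piRNA pathway, AGO3 rose by 0.46 and aub fell by 0.62. Another germline marker, piwi, did not pass in limma (0.20, adjusted p = 0.0671) but was higher at an unadjusted p under 0.05. Of the ectoderm markers 1 rose, and of the muscle and neuron markers 0 passed in limma, with 1 muscle marker lower at an unadjusted p under 0.05. The 5′ minus 3′ signal of the Act5C control probe sets, a sign of RNA quality, was -1.79 ± 0.0778 in induced cells and -1.26 ± 0.0869 in S2 control (SD, n = 3 each), while that of actin, eIF-4a, GAPDH and 18S rRNA differed by -0.08 to 0.03 and that of a second GAPDH series by 0.19. Their part in the results was not tested.

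Most of the patterning genes gave dim signals in both groups, and few differed. In induced cells bcd rose, and tsh, prd and cad fell, while 25 of the 29 measured genes did not pass (limma, adjusted p under 0.05 over all tested probe sets). These 4 genes are 13.8% of the members, beside 30.5% of all genes called in either direction, with 14.5% of all genes rising and 16.0% falling. For the same 4 genes every array of one group lay beyond every array of the other, 13.8%, against 45.4% of all genes. The median log2 change was -0.02 over the members and -0.01 over all genes, and the median size of change, regardless of sign, was 0.06 over the members and 0.11 over all genes.

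**Figure D1:**
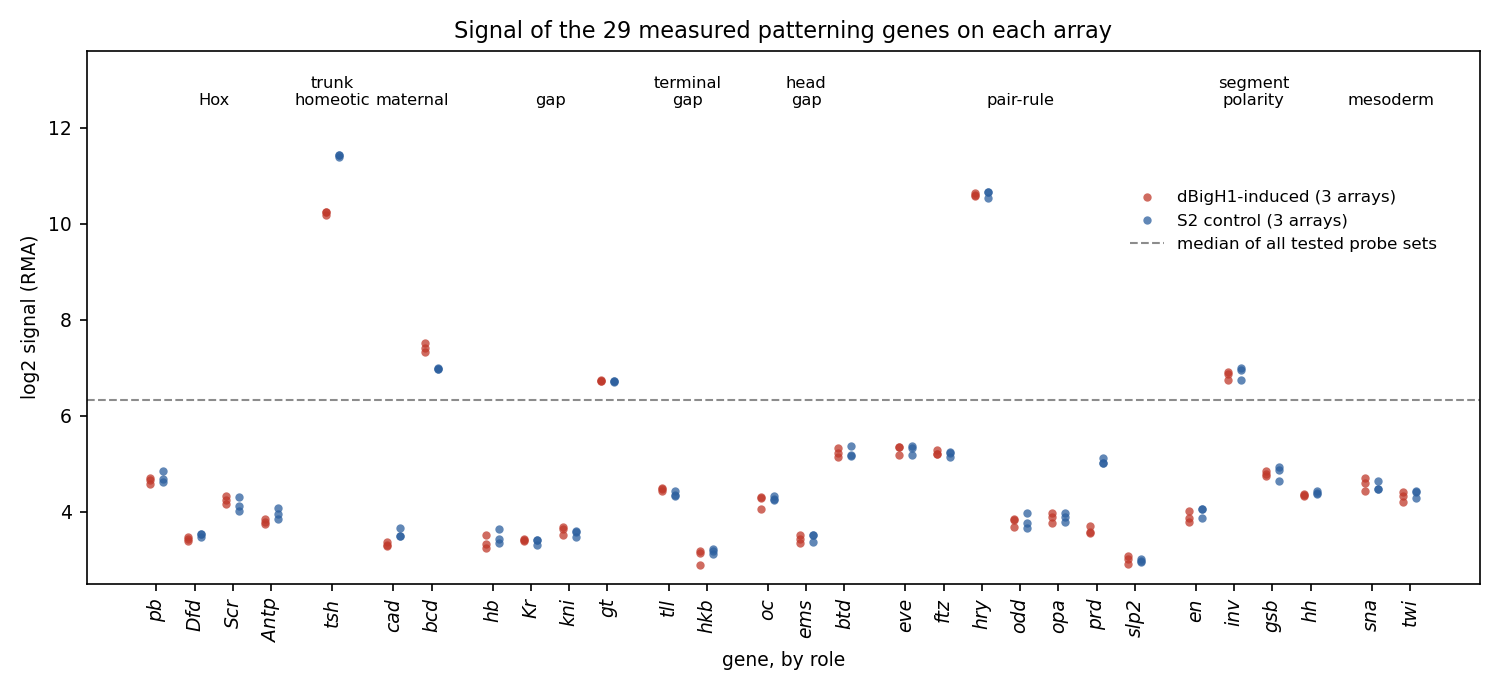
Log2 RMA signal (vertical axis) of the 29 measured patterning genes, grouped by role along the horizontal axis, with the 3 induced arrays in red to the left of the 3 S2 control arrays in blue; the dashed line is the median of all tested probe sets, 6.33. Only tsh, hry, bcd, gt and inv lie above the line, and tsh and prd are the genes whose groups stand visibly far apart.

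Expressed genes were told from silent ones by the mean signal over all 6 arrays, above or below 6.33, the median of all tested probe sets, a split that does not use the groups. By it, 5 members were expressed (tsh, hry, bcd, gt and inv) and 24 were silent. The members nearest the line were gt at 6.72 and inv at 6.86 above it and eve at 5.29 and btd at 5.23 below it. Signals of different probe sets also depend on their probes, and no detection calls were used, so a silent gene is one with a dim signal and not one shown to lack RNA. Among expressed members 1 rose and 1 fell of 5 (40.0%), beside 42.3% of expressed genes, 21.1% rising and 21.3% falling. Among silent members 0 rose and 2 fell of 24 in limma (8.33%), with 0 higher and 3 lower at an unadjusted p under 0.05, beside 14.0% of silent genes, 5.34% rising and 8.66% falling. Neither share stands above that of all genes in the same signal class.

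The dim signals bear on these counts. When all measured genes were split into 10 groups of like number by mean signal, 21 of the 29 members lay in the 2 dimmest groups. In the dimmest, which held 12 members, 1.33% of all genes rose and 3.50% fell. In the next, which held 9 members, 2.09% rose and 6.09% fell. In the 9th group, which held tsh and hry, 21.0% rose and 23.0% fell.

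**Figure D2:**
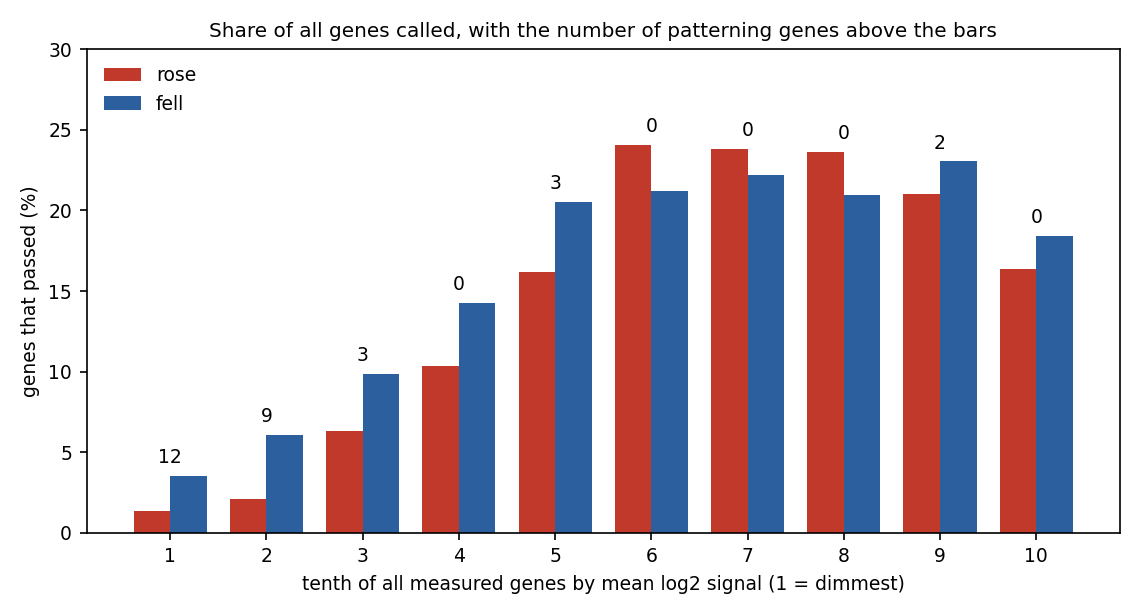
Percentage of all measured genes that rose (red) or fell (blue) in induced cells, in 10 groups by mean log2 signal from dimmest to brightest; the number above each pair of bars is the number of the 29 patterning genes in that group. Calls are rare in the 2 dimmest groups, which hold 12 and 9 of the patterning genes.

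The homeotic class was led by tsh (teashirt), which encodes a zinc finger protein that specifies the trunk segments together with the Hox proteins. Its log2 signal was 10.25, 10.24 and 10.18 on the induced arrays, against 11.42, 11.42 and 11.39 on the S2 control arrays. The groups lay far apart relative to the spread within them. The gene fell by 1.19 on the log2 scale (SE 0.05, 95% interval -1.30 to -1.08, adjusted p = 2.241e-07), so that S2 control had 2.28 times the signal of induced cells. Among all tested probe sets, tsh stood at the 83.6 percentile in induced cells and at the 93.0 percentile in S2 control. Genes that fell by at least 2-fold, as tsh and prd did, were 1.11% of all genes. Its paralogue tio (tiptop) was dim, at 4.63 ± 0.0507 in induced cells and 4.68 ± 0.0400 in S2 control (SD, n = 3 each, log2 change -0.06, adjusted p = 0.490).

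The 4 Hox genes measured all belong to the Antennapedia complex, were all silent, and 0 passed in limma (1 at an unadjusted p under 0.05, Antp). Antp, which specifies the thorax, read 3.75, 3.84 and 3.79 on the induced arrays, against 3.84, 3.95 and 4.07 on the S2 control arrays. Its groups overlap narrowly at 3.84, and the log2 change was -0.16 (SE 0.07, adjusted p = 0.115). Without S2 control replicate 1 it passed (-0.21, adjusted p = 0.0420). Of its other probe sets, one gave -0.18 (adjusted p = 0.0604) and the other 0.01 (adjusted p = 0.966). The changes of the head and mouthpart genes pb and Dfd were -0.06 and -0.08, and Scr, of the labial segment and first thoracic segment, stood at 0.10, with adjusted p-values from 0.319 to 0.592.

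Among the maternal genes, bcd (bicoid) encodes the homeodomain protein that patterns the anterior of the embryo. On its brighter probe set it read 7.40, 7.50 and 7.32 on the induced arrays, against 6.99, 6.98 and 6.97 on the S2 control arrays. Every induced array lay above every S2 control array, and bcd rose by 0.43 (SE 0.06, 95% interval 0.30 to 0.56, adjusted p = 0.000512). The other probe set of bcd was dim, at 3.38, 3.34 and 3.43 on the induced arrays and 3.29, 3.45 and 3.46 on the S2 control arrays, and gave a log2 change of -0.02 (adjusted p = 0.880). The name of the brighter probe set carries an s, which marks probes that may match transcripts of more than 1 gene, and the rise was seen on 1 of the 2 probe sets.

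The homeodomain gene cad (caudal), which acts in the posterior, was dim throughout. It read 3.37, 3.29 and 3.30 on the induced arrays, against 3.66, 3.49 and 3.49 on the S2 control arrays. The groups did not overlap, and cad fell by 0.23 (SE 0.06, adjusted p = 0.0196). The call was lost without induced replicate 2 (adjusted p = 0.0706), without induced replicate 3 (0.0672) and without S2 control replicate 1 (0.0621), at log2 changes of -0.21, -0.22 and -0.17.

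**Figure D3:**
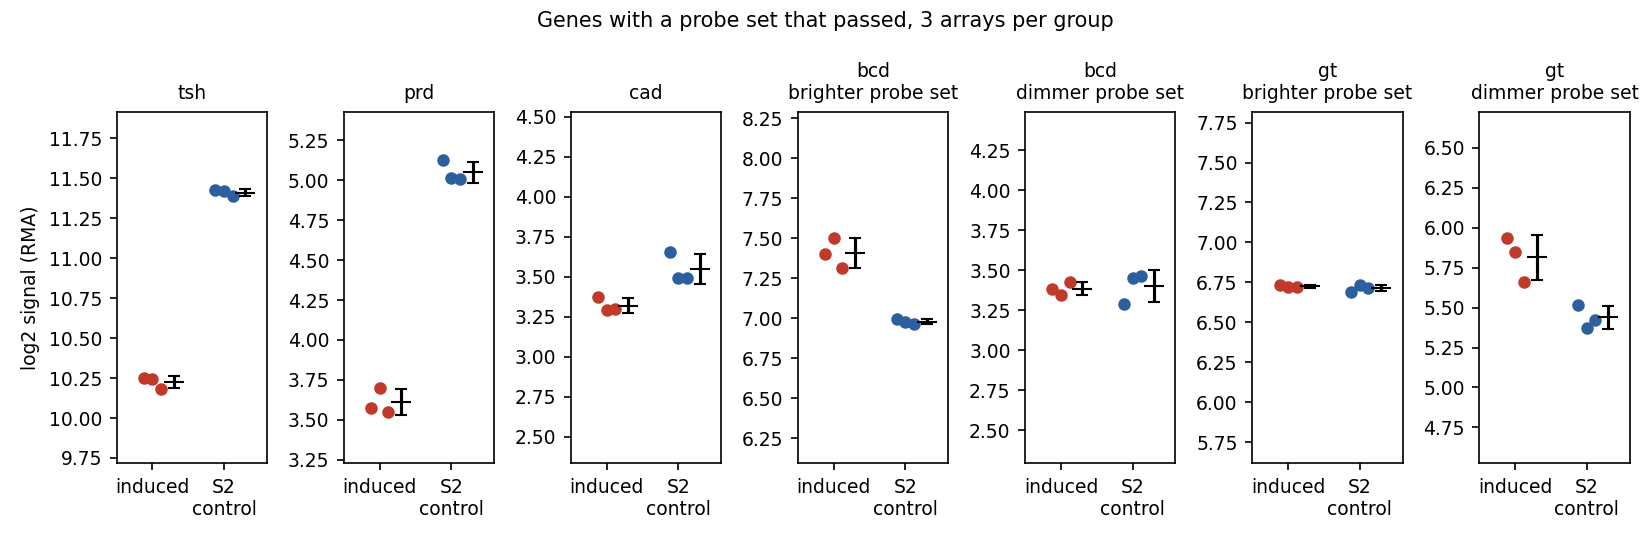
Log2 RMA signal of the probe sets of tsh, prd, cad, bcd and gt on the 3 induced arrays (red, left) and 3 S2 control arrays (blue, right), with the mean and SD of each group as black bars; all panels span the same number of log2 units, at different levels. The drops of tsh and prd exceed the spread between arrays, while bcd and gt each moved on 1 of 2 probe sets.

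Of the gap genes, hb, Kr and kni, whose zinc finger and nuclear receptor proteins divide the embryo into broad domains, were silent. Their log2 changes of -0.12, 0.03 and 0.06 did not pass. The gap gene gt (giant), which encodes a bZIP repressor, was the exception in signal. On its brighter probe set gt read 6.73, 6.72 and 6.72 on the induced arrays, against 6.69, 6.73 and 6.72 on the S2 control arrays. These values overlap, and the log2 change was 0.01 (SE 0.05, 95% interval -0.10 to 0.12, adjusted p = 0.904). On its dimmer probe set gt read 5.93, 5.85 and 5.66 on the induced arrays, against 5.52, 5.38 and 5.42 on the S2 control arrays. There every induced array was higher, and the probe set rose by 0.37 (SE 0.08, adjusted p = 0.00483). The mean of both probe sets rose by 0.19 (adjusted p = 0.0251), so whether gt is called depends on the probe set. As with bcd, the name of the brighter probe set of gt carries an s, and that of the dimmer one does not.

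The terminal gap genes tll, of the embryo's unsegmented ends, and hkb, which bounds the gut primordia, were silent, with log2 changes of 0.08 and -0.10 (adjusted p = 0.306 and 0.419). The head gap genes oc, ems and btd were silent as well, with log2 changes of -0.06, -0.03 and -0.0025.

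In the pair-rule class prd (paired), which encodes a protein with a paired domain and a homeodomain, fell, and the other 6 measured genes did not pass. The log2 signal of prd was 3.58, 3.70 and 3.55 on the induced arrays, against 5.13, 5.01 and 5.01 on the S2 control arrays. No array of one group came near the other group. The gene fell by 1.44 (SE 0.06, 95% interval -1.58 to -1.30, adjusted p = 2.571e-07), with 2.71 times the signal in S2 control. The level of prd in S2 control was at the 27.8 percentile of all tested probe sets and in induced cells at the 3.69 percentile, so the drop took place wholly within the dim range, where background compresses differences. Genes that fell by at least 2-fold made up 0.520% of silent genes. In RefSeq's annotation prd overlaps the antisense RNA gene asRNA:CR44592, and whether its probes also read that transcript was not tested.

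The pair-rule gene hry (hairy), whose bHLH repressor also works outside segmentation, was bright in both groups. It read 10.64, 10.58 and 10.60 on the induced arrays, against 10.66, 10.66 and 10.52 on the S2 control arrays. The log2 change of hry was -0.01 (SE 0.06), and its 95% interval, -0.13 to 0.12, does not reach the change of tsh. The stripe genes eve and ftz, the zinc finger genes odd and opa and the forkhead gene slp2 were silent, with log2 changes of 0.01, 0.03, -0.01, 0.00 and 0.02. The adjusted p of these 5 genes lay between 0.754 and 0.990.

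**Figure D4:**
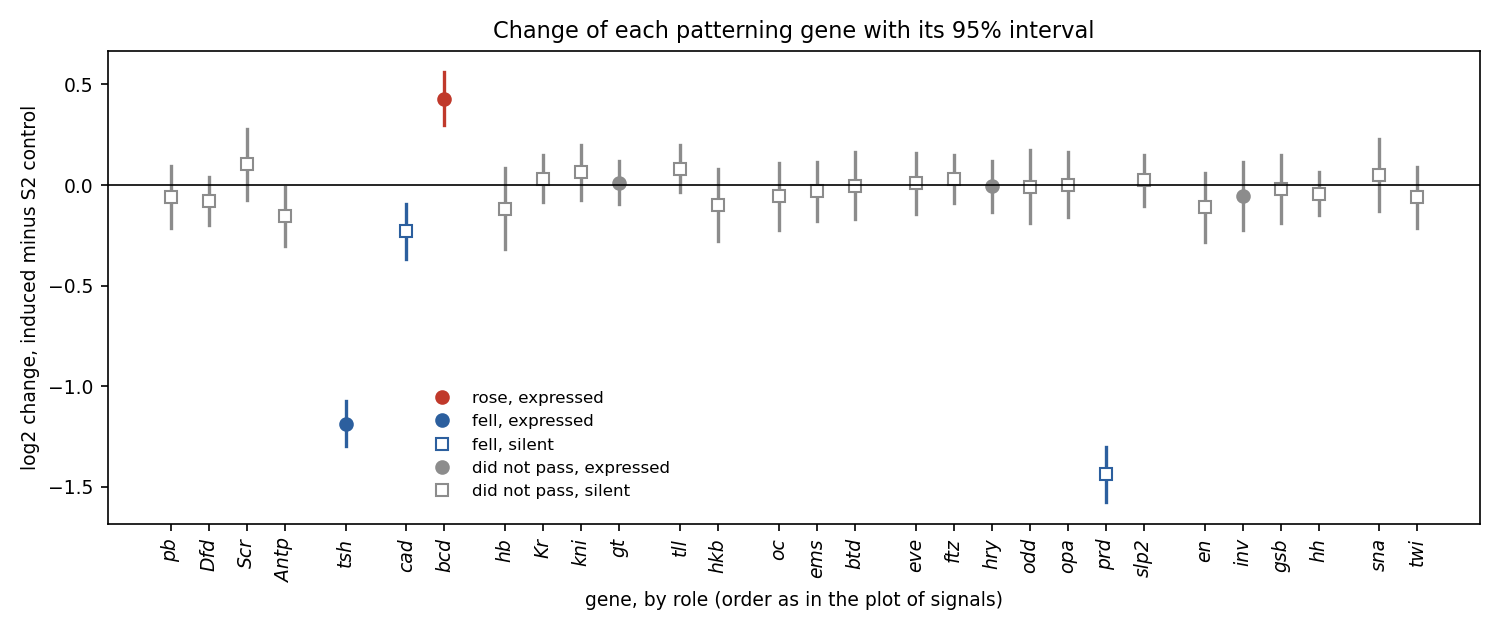
Log2 change (vertical axis, induced minus S2 control) of the 29 measured patterning genes with 95% intervals from limma; filled circles are expressed and open squares silent genes, red rose, blue fell and grey did not pass. The genes that passed are tsh at -1.19, prd at -1.44, bcd at 0.43 and cad at -0.23, and the interval of Antp, which did not pass, also lies just below 0.

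Of the segment polarity genes, inv (invected), the homeodomain paralogue that lies beside engrailed, was the only expressed one of the 4 measured. Its signal was 6.74, 6.86 and 6.91 on the induced arrays, against 6.74, 6.99 and 6.95 on the S2 control arrays. The values overlap, with a log2 change of -0.05 (SE 0.08, 95% interval -0.22 to 0.12, adjusted p = 0.673). Its partner en was dim, at 3.88 ± 0.115 in induced cells and 3.99 ± 0.115 in S2 control (SD, n = 3 each, log2 change -0.11, adjusted p = 0.345). The probe sets of en and inv both carry an s in their names. The ligand gene hh (hedgehog) read 4.33 to 4.38 in induced cells and 4.38 to 4.43 in S2 control (log2 change -0.04, adjusted p = 0.593), and the Pax gene gsb gave -0.02.

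The mesoderm genes sna and twi, whose zinc finger and bHLH proteins drive gastrulation, were silent. Their log2 changes were 0.05 and -0.06 (adjusted p = 0.712 and 0.579). Taking the 22 silent genes that did not pass together, single arrays read between 2.88 and 5.37, log2 changes ran from -0.16 to 0.10, and no 95% interval reached beyond 0.320 in size. These bounds hold for the signal, which understates differences between dim transcripts. Over all 24 silent members the groups did not overlap for 2, prd and cad, or 8.33%, beside 24.1% of silent genes.

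Gene position was described as well, and the Hox complexes hold many of the members themselves. From lab to Antp, both included, RefSeq's gene order holds 20 protein-coding genes, of which 14 were measured, 12 of them silent. Here 2 rose, 1 fell and 11 did not pass, or 21.4% called beside 30.5% of all genes, and 1 of the 12 silent genes passed, beside 14.0% of all silent genes. The 3 that passed lie side by side, and whether called genes cluster there was not tested. The counts include members described above. Of the 8 measured genes there that are not members, 1 rose, 1 fell and 6 did not pass, or 25% called. Beside bcd, the homeobox gene zen, which acts in the dorsal embryo, rose by 0.22 (SE 0.06, adjusted p = 0.0275), at 5.31 ± 0.0196 in induced cells and 5.09 ± 0.115 in S2 control (SD, n = 3 each). On the other side Ama, which encodes a secreted immunoglobulin-domain protein, fell by 0.28 (SE 0.05, adjusted p = 0.00438), with mean signals of 8.02 in induced cells and 8.30 in S2 control. The measured cuticle genes of the complex (Edg84A, Ccp84Ag, Ccp84Ae and Ccp84Ac) and zen2 did not pass, with log2 changes from -0.05 to 0.01. The cuticle genes Ccp84Af, Ccp84Ad, Ccp84Ab and Ccp84Aa were not measured. In the bithorax complex 1 gene was measured, CG31275, with a log2 change of -0.01 (adjusted p = 0.943).

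Some genes beside tsh and prd were called too, as 30.5% of all genes were. Both neighbours of tsh fell: CG11629 fell by 0.72 (SE 0.07, adjusted p = 6.564e-05), with mean signals of 4.65 in induced cells and 5.37 in S2 control, and CG11630 fell by 0.22 (SE 0.06, adjusted p = 0.0171). Within 5 protein-coding genes on each side of tsh, a window chosen after the values were seen, 4 of 9 measured genes fell and 5 did not pass, or 44.4% called, with 16.0% of all genes falling. Of these 9 genes 3 were expressed and 6 silent, and 21.3% of expressed and 8.66% of silent genes fell. The outermost of these, nolo, fell by 1.64 (SE 0.07), at 7.48 in induced cells and 9.13 in S2 control. Around prd, in the same window, 3 of 9 fell, 4 rose and 2 did not pass, or 77.8% called, with 7 of the 9 expressed. Of all expressed genes 21.1% rose and 21.3% fell. The fall of prd was flanked on one side by firl, the next gene but 1, which fell by 2.45 (SE 0.06), at 9.30 in induced cells and 11.75 in S2 control. On the other side lay Pex19, a peroxisome import gene, which rose by 0.22 (SE 0.05, adjusted p = 0.00995). The gene between firl and prd, CG14947, did not pass (-0.13, adjusted p = 0.263). Around cad 1 of 9 fell, the proteasome assembly gene Pomp beside it (-0.28, adjusted p = 0.00767), and 8 did not pass, or 11.1% called. Neighbours of a gene that fell were not compared with neighbours of other genes.

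**Figure D5:**
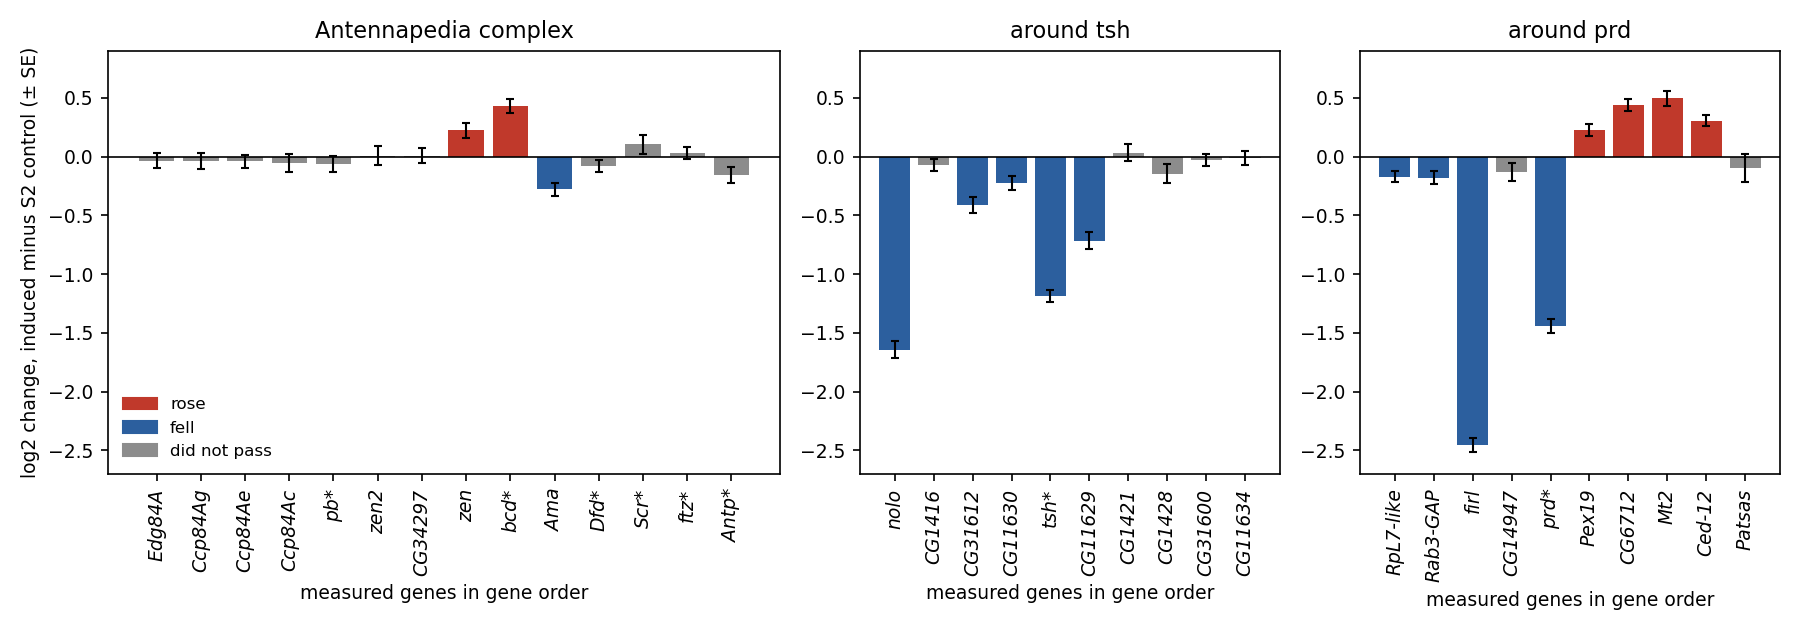
Log2 change (vertical axis, induced minus S2 control, with SE bars) of the measured protein-coding genes in RefSeq's gene order from lab to Antp and within 5 genes of tsh and of prd; asterisks mark patterning genes described here, red bars rose, blue fell and grey did not pass. In the Antennapedia complex the 3 genes that passed, zen, bcd and Ama, stand side by side, and CG11629 and CG11630 beside tsh fell too.

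The wider patterning machinery was followed in 5 lists of 117 other genes, of which 89 were measured. Of these, 13 rose, 16 fell and 60 did not pass, or 32.6% called beside 30.5% of all genes. The share was 48.9% of the 45 expressed genes, beside 42.3% of all expressed genes. It was 15.9% of the 44 silent ones, beside 14.0% of all silent genes. The number that rose was lower with 1 array left out, at 6 to 12 against 13 with all arrays. It was 6 without induced replicate 3, 6 without S2 control replicate 1 and 8 without induced replicate 2. Of all genes, 1285 to 1554 rose with 1 array left out, against 1739 with all arrays. Over the 89 genes the median log2 change was -0.03.

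The Hedgehog and Wingless pathway list holds receptors, transducers and ligand-processing enzymes, and 21 of its 35 genes were measured. The Wingless receptor and transducer genes fz, fz2, arr, dsh, arm and pan were not among them. The measured genes were nearly all expressed, with 20 of 21 above the line, although hh itself was silent. Of the 21, 4 rose, 5 fell and 12 did not pass, or 42.9% called (median log2 change 0.01, beside -0.01 for all genes). Of the 20 expressed ones 45.0% were called, near the 42.3% of all expressed genes. The Wingless feedback inhibitor gene nkd fell by 0.62 (SE 0.07, adjusted p = 0.000179), at 8.86 ± 0.100 in induced cells and 9.48 ± 0.105 in S2 control (SD, n = 3 each). The glypican gene dlp fell by 0.34 and shf, a secreted protein gene that helps Hedgehog spread, fell by 0.39. The Hedgehog co-receptor genes boi and ihog rose by 0.30 and 0.24, and botv, an enzyme of heparan sulphate synthesis, rose by 0.24. The adjusted p of these 5 genes lay between 0.00244 and 0.0407.

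Of 18 measured maternal and zygotic regulators, 2 rose, 4 fell and 12 did not pass, or 33.3% called beside 30.5% of all genes. Of the 13 expressed ones 46.2% were called, beside 42.3% of all expressed genes. Of the 5 silent ones 0 passed, beside 14.0% of all silent genes. The genes exu and stau, whose proteins localise maternal mRNA such as that of bcd, fell by 0.44 (SE 0.07) and 0.38 (SE 0.06), and trk, the ligand gene of the terminal receptor Torso, fell by 0.64 (SE 0.06, adjusted p = 4.809e-05). The signal of exu was 11.09 ± 0.0621 in induced cells and 11.54 ± 0.124 in S2 control (SD, n = 3 each). The GAGA-binding factor genes Trl and psq, which act at Polycomb and trithorax response elements, rose by 0.23 and 0.22 (SE 0.06 each, adjusted p = 0.0126 and 0.0219). Of 8 Hox cofactor and partner genes listed 6 were measured, and the cofactor genes exd and hth were not among them. Of the 6 measured 1 rose (16.7%), the nuclear receptor gene ftz-f1, by 0.30 (SE 0.07, adjusted p = 0.00784), and 5 did not pass, all silent.

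Of 29 other patterning transcription factor genes, 4 rose, 3 fell and 22 did not pass, or 24.1% called beside 30.5% of all genes. Of the 6 expressed ones 50.0% were called, beside 42.3% of all expressed genes. Of the 23 silent ones 17.4% were called, beside 14.0% of all silent genes. The eye selector gene ey fell by 0.77 (SE 0.09, adjusted p = 0.000165), with signals of 6.10 ± 0.188 in induced cells and 6.87 ± 0.0631 in S2 control (SD, n = 3 each), while its paralogue toy rose by 0.28 at signals of 5.51 in induced cells and 5.23 in S2 control. The zinc finger gene bowl, of the same family as odd, fell by 0.45, whereas sob and drm of that family did not pass (-0.10 and -0.16). The BTB gene rib rose by 0.37, and the bZIP gene cnc fell by 0.27. Of 16 dorsoventral and mesoderm genes, 2 rose, 4 fell and 10 did not pass. The GATA cofactor gene ush rose by 0.55 and the GATA factor gene pnr by 0.35. The LIM-homeodomain gene tup fell by 0.63, the FGF ligand gene pyr fell by 0.38 and dl, the dorsal transcription factor gene that is also an immune regulator, fell by 0.29. The adjusted p of the genes named here that rose or fell ran up to 0.0341.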

How the data were processed

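Total RNA of 6 samples, 25 ng each, was amplified, labelled with biotin and measured on 1 Affymetrix array a sample, per the labels' protocols. The authors deposited log2 signals, 1 per probe set and array, which they made with RMA, per the submitters' processing notes. The sources used here name no RMA version and no filter. RMA gives arrays a like distribution, so a change shared by all transcripts is removed.

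The table held 18952 probe sets, of which 183 controls were left out and 18769 tested. The platform annotation named 1 gene for 13647, several for 402 and none for 4720, and 13544 symbols were updated through RefSeq's gene table (Release 6), which also gave gene order. The group difference was fitted with limma 3.58.1 (R 4.3.3, lmFit and eBayes with no other term, two-sided tests), and p-values were adjusted by Benjamini-Hochberg over all 18769, with a threshold of 0.05. "Rose" and "fell" mean passed. Since no label says that replicates were separate cultures, p-values speak of the spread among the arrays alone, possibly a technical one. The number of arrays limits the precision. The fit was tested on simulated data drawn with limma's own estimate of spread, so that test does not bear on other noise in these arrays.

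Members, lists and tests were chosen with earlier results of these data known. All members were named. Of the other lists at most 3 passing genes per direction, by smallest adjusted p, were named, apart from paralogues of members (tio, sob, drm), besides BigH1, genes of the Hox complexes and neighbours of passing members; nolo and firl were chosen after their values were seen.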

Additional observations from a re-analysis of the deposited data

How the results depend on the processing

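The changes of the 29 genes were recomputed under 13 alternatives, 353 values in all, of which 347 kept their side of the threshold, 4 lost the call, 2 gained it and 0 changed direction where either value passed. The log2 change of tsh lay between -1.20 and -1.17, of prd between -1.49 and -1.40, of cad between -0.26 and -0.17 and of bcd between 0.21 and 0.47. The calls lost were all of cad, with 1 array left out or at an adjusted p under 0.01, and those gained were of Antp and gt. Without dim probe sets 1 member fell, since prd and cad are then not tested. With all probe sets of a gene averaged 2 members rose, both expressed, and 2 rose when any probe set of a gene could pass, a setting added after the data were seen. At an adjusted p under 0.01, 1077 of all genes rose, and 5 of the other patterning genes. With 1 array left out, 6 to 12 of the other patterning genes rose, against 13 with all arrays. The number was 8 without induced replicate 2, 6 without induced replicate 3 and 6 without S2 control replicate 1. Of all genes, 1285 to 1554 rose with 1 array left out, against 1739 with all arrays. The cause was not tested. With the replicate number as a block, 1 member rose and 3 fell, and 1549 of all genes rose and 1727 fell. Deviations of same-numbered arrays correlated at 0.0384, -0.0983 and 0.0135, so same-numbered arrays showed no shared deviation. Whether the samples of a number were handled together cannot be told from these values. With the 95th percentile of 112 odorant and gustatory receptor genes (7.11) as the line, 3 members were expressed (tsh, hry and bcd), of which 1 rose and 1 fell. By that line gt at 6.72 and inv at 6.86 were not expressed, and bcd lay just above it at 7.19. The receptor genes are an imperfect reference, since 28 of the 112 (25.0%) were themselves called, beside 14.0% of all silent genes. Scanner files were not used, so background correction and slide could not be varied. Dim signals limit what could be seen for 24 of the 29 genes.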
